A study of Mus musculus with 16 samples.

Results

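Interferon-stimulated genes are the genes that cells switch on when an interferon is sensed. They are described here as 49 gene symbols chosen by name from the antiviral and immune genes of this kind, in neutrophils from mouse blood. No rule on measured values entered the choice, but it was made with earlier results of these data known. All 49 symbols were found among the 23337 of the count table, and 45 of them were among the 9213 genes with enough counts to be tested. Type I and type II interferons bind receptors at the cell surface, and the receptor kinases Jak1, Tyk2 and Jak2 then activate transcription factors in the cytoplasm. These act in the nucleus through 2 DNA elements, the interferon-stimulated response element (ISRE), which Irf9 helps to bind, and the gamma-activated site (GAS). The genes driven by these elements block viral entry, translation and replication, and neutrophils are known to carry many of their transcripts already at rest.

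The 16 libraries were bulk RNA-Seq libraries of blood neutrophils from mice labelled C57/Bl6 (C57BL/6J in the study's methods), 8 weeks of age, obtained by removing other blood cells with magnetic beads. LTβRΔN mice (Ltbrfl/fl x Mrp8-Cre) lack the lymphotoxin beta receptor in cells that express Cre from the Mrp8 promoter, a promoter active in neutrophils, and the controls (Ltbrfl/fl Cre-) are littermates that carry the same floxed alleles without Cre. Each genotype was labelled either unstimulated or stimulated, which gave 3 unstimulated control, 4 stimulated control, 4 unstimulated LTβRΔN and 5 stimulated LTβRΔN libraries. In the protocol, isolated cells stayed in culture for 2 h, and the cytokines listed are GM-CSF and TNF (100 ng/ml each) and IL-6 (50 ng/ml), to which soluble LIGHT (500 ng/ml), a ligand of the deleted receptor, was or was not added. The stimulated label is read here as these cytokines, since the design text contrasts cells given cytokines with cells not given them. The paper reads its RNA-Seq otherwise, as neutrophils given cytokines and compared with and without LIGHT. The labels do not say which libraries received LIGHT or whether unstimulated ones lacked cytokines. Column names carry a number that 7 pairs of libraries share across treatment labels, and nothing says whether it marks an animal. Libraries were fitted as separate, so p-values measure the spread between these libraries and would not account for such a pairing.

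Total counts lay between 1094335 in an unstimulated LTβRΔN library (library 68) and 11932653 in an unstimulated control library. Depth differed between genotypes. The median total was 2408608 in stimulated LTβRΔN against 8255787.5 in stimulated control libraries, and 5183736.5 against 7726335 in unstimulated ones. Ltbr was lower in LTβRΔN libraries with a log2 fold change of -3.80 in unstimulated and -3.72 in stimulated cells, and Cish, Socs3 and Nfkbia, which report cytokine signalling, were higher in every stimulated library than in any unstimulated one. Of the neutrophil marker list all 8 genes in the table were detected, while the B cell markers Cd79b, Ms4a1 and Pax5, the T cell marker Cd3e, Hba-a1 and Hba-a2 of red cells and Siglech of plasmacytoid dendritic cells were at 0 in all libraries. Other genes of those lists were present at low levels, Cd3d at 2.11 to 14.9 CPM (counts scaled to an equal library size) and Cd8a at up to 1.89. Cd79a reached 1.60, Alas2 of the red cell list 1.49 and Tcf4 4.79. A count of 0 for some genes of a list therefore does not show that the cells were absent. Of the monocyte list, which summed to 1877 to 3055 CPM, Csf1r, Ly6c2 and Nr4a1 were present in all libraries, and Ccr2 and Cx3cr1 reached at most 1.39 and 0.170 CPM. The part of such cells in the results below was not tested. One stimulated control library, library 82, stood apart with summed platelet markers of 169.6 CPM against at most 39.1 in the others. The sample titles end in an N part and an S part, read here as the names of an index pair. The S part, called the index below, was S520 in 6 unstimulated libraries and S521 in the other 10. Most of the stimulation comparison therefore runs across the index. In LTβRΔN cells all 4 unstimulated libraries had S520 and all 5 stimulated ones S521. An index effect can therefore be estimated only among the 3 unstimulated control libraries, 2 with S520 and 1 with S521.

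Slfn2 was the 1 member of the module that passed the test with stimulation, and it rose in both genotypes. It belongs to the Schlafen family of interferon-induced genes and is known for holding T cells and monocytes in a resting state. In CPM, scaled between libraries by the TMM method, Slfn2 was at 1134, 986 and 1060 in the unstimulated control libraries and at 2781, 3110, 3059 and 2876 in the stimulated ones. In LTβRΔN neutrophils it was at 1224, 939, 1158 and 1244 before and at 2899, 2897, 2800, 3028 and 3019 after stimulation. No stimulated library overlapped an unstimulated library in either genotype. The log2 fold change was 1.48 (SE 0.112) in control cells, with a 95% interval of 1.25 to 1.71 and an adjusted p of 1.959e-09 by edgeR's quasi-likelihood test. It was 1.36 (SE 0.0979) in LTβRΔN cells, with an interval of 1.16 to 1.56 and an edgeR adjusted p of 7.071e-10. The 2 changes differed by -0.12, with an interval of -0.42 to 0.18 that allows neither a doubling nor a halving of the response. Among libraries with index S521 alone, the 1 unstimulated library was at 1060 and the 4 stimulated control libraries averaged 2957, a log2 difference of 1.48.

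The other 4 Schlafen members in the table were tested and did not pass. Slfn1, which is next to Slfn2 on chromosome 11 and restrains T cell growth, was at 439 to 580 CPM in unstimulated control libraries and at 527 to 657 in stimulated ones. Its log2 fold change was 0.21 (interval -0.08 to 0.50) in control and 0.17 (-0.08 to 0.43) in LTβRΔN cells, so a doubling lies outside both intervals. Slfn4 gave 0.15 and 0.26, Slfn5 0.30 and 0.70, and Slfn8 -0.42 and 0.67, none past the threshold. Slfn8 was at 18.6, 8.16 and 14.5 CPM in unstimulated and 1.49, 9.96, 16.45 and 13.2 in stimulated control libraries. LTβRΔN libraries held 14.2, 15.2, 2.04 and 15.4 of it unstimulated and 15.6, 11.1, 21.1, 20.2 and 24.8 stimulated. The near neighbours Slfn3 and Slfn9, which are not in the module, had below 2 CPM in all libraries, and the sequences of the family are close enough that reads shared between its members could have been split or lost in counting.

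The sequences before the starts of Slfn2 and Slfn1 are shown because these neighbours moved differently, and those of Isg15 and Ifit1 because they are typical interferon-stimulated genes of the module that did not pass. Isg15 and Ifit1 were picked after their values had been seen. Each is the 250 bases before the RefSeq start on GRCm38.p6, written 5′ to 3′ along the gene: chr11:83064862-83065111 on the plus strand, chr11:83116570-83116819 on the plus strand, chr4:156200819-156201068 on the minus strand and chr19:34640639-34640888 on the plus strand. Capitals mark matches on either strand to the ISRE letters (GAAA and again GAAA after any 2 bases), the GAS letters TTCNNNGAA or the kB motif of NF-kB.
Slfn2: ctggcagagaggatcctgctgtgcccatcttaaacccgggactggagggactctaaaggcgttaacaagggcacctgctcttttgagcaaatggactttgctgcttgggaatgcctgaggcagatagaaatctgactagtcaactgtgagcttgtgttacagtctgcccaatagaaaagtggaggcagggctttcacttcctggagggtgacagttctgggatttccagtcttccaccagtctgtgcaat
Slfn1: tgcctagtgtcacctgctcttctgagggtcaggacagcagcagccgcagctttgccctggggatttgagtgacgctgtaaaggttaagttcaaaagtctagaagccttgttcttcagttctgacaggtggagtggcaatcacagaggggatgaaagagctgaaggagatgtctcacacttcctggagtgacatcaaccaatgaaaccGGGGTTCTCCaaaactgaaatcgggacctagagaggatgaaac
Isg15: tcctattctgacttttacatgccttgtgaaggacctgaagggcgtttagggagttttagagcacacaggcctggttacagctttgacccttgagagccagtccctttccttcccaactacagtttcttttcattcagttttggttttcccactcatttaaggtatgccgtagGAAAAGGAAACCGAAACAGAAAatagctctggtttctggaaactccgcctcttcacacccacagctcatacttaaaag
Ifit1: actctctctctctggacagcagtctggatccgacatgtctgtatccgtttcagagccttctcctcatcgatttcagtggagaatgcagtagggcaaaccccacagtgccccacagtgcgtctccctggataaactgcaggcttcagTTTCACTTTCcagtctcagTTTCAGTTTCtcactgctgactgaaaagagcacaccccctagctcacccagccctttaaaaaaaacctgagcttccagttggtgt

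The Slfn2 window held none of these letters, Slfn1 held 1 kB match, Isg15 3 overlapping ISRE matches and Ifit1 2 ISRE matches. A match is a description of letters, not a site of binding, and a window without one says nothing of which factors act on the gene. A RefSeq window of 250 bases before to 50 after the start was found for 39 of the 49 members. ISRE letters stood in 52.2% of the 46 member windows and in 3.44% of all 32851 windows of the table. GAS letters stood in 23.9% of member windows and 8.3% of all windows, and kB letters in 21.7% and 8.46%. Matches of different motifs overlapped in 3 of the 32 member windows with any match. Of the 22 members with an ISRE match, 21 were tested and 0 passed in either stimulation comparison, beside 3.48% and 3.73% of all genes. With shares this small, 0 of 21 is not a result about these members. Their median log2 fold changes were -0.14 in control and -0.01 in LTβRΔN cells. The 16 tested members with a window and no ISRE match had medians of 0.13 and -0.08. For GAS letters the medians were 0.16 and -0.01 with a match (11 tested) and -0.10 and -0.07 without (26 tested). For kB letters they were -0.01 and -0.06 with a match (9 tested) and -0.10 and -0.003 without (28 tested).

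**Figure D1:**
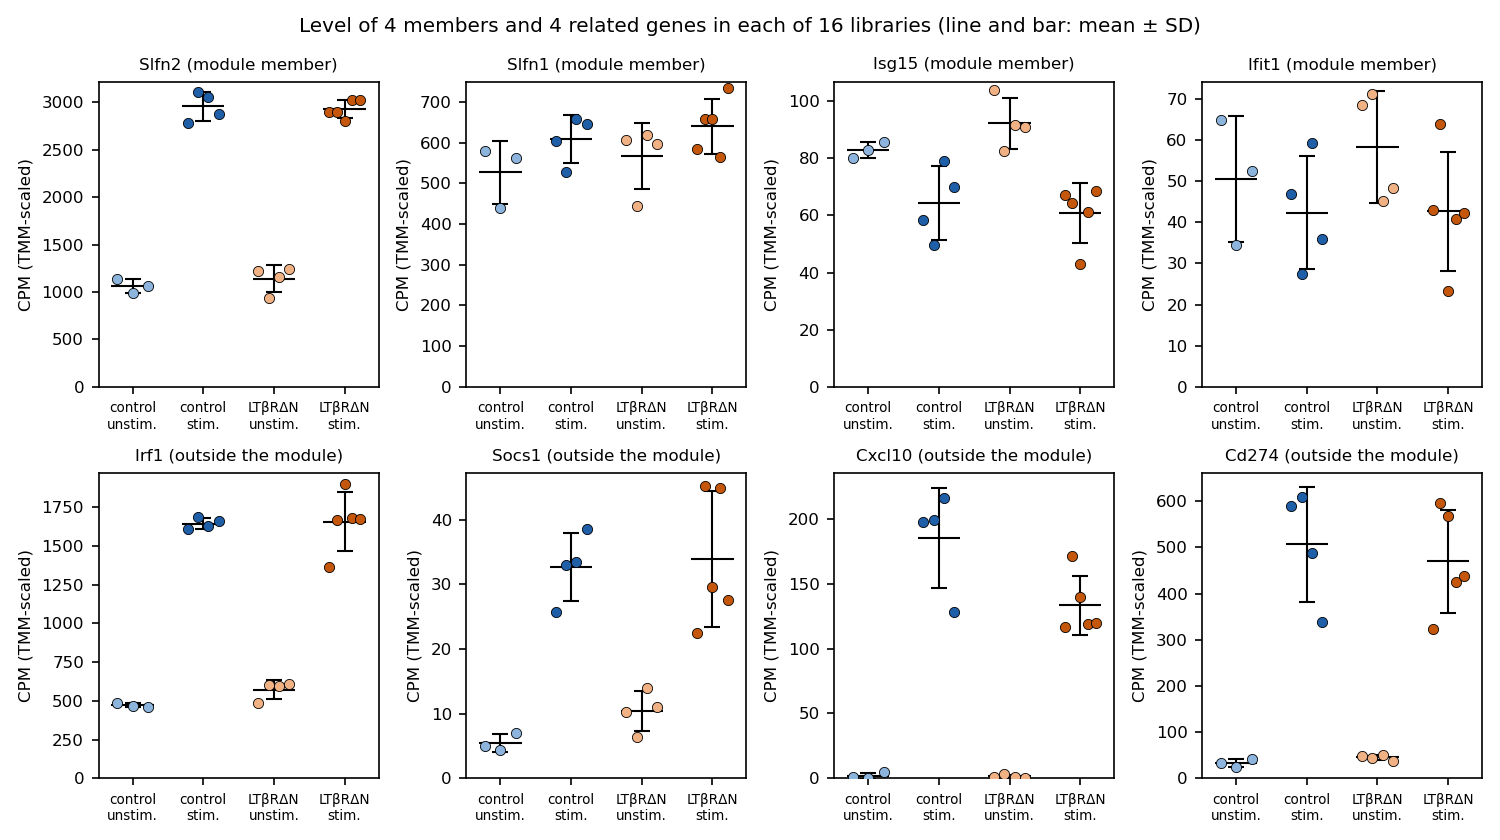
CPM of 4 module members (Slfn2, Slfn1, Isg15 and Ifit1) and of 4 genes outside the module (Irf1, Socs1, Cxcl10 and Cd274) in the 16 libraries, each axis starting at 0. Points are libraries, lines and bars are the mean and SD of the 3 to 5 libraries of a group. Slfn2 and the 4 outside genes separate stimulated from unstimulated libraries, and the groups overlap for Slfn1 and Ifit1, while Isg15 lies lower in stimulated libraries.

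Across the module, 1 of 45 tested members passed in stimulated against unstimulated control neutrophils, beside 3.48% of all tested genes. In LTβRΔN neutrophils it was again 1 of 45, beside 3.73% of all genes, and both were Slfn2. Before adjustment, p lay under 0.05 for 3 members in control cells (Slfn2, Parp9 and Rsad2) and for 4 in LTβRΔN cells (Slfn2, Isg15, Cmpk2 and Gbp5). The share of all genes under this limit is not given here, so these counts are not read as a result about the members. The median log2 fold change of the members was -0.06 in both genotypes, against -0.02 and -0.03 over all genes tested. In control cells it was -0.15 without library 82, the library with platelet markers, and 0.03 without library 80, and in LTβRΔN cells 0.03 without library 77, with Slfn2 passing each time. Among libraries with index S521, the stimulated control libraries lay at a median of -0.24 over members from the 1 unstimulated one, with 13 of 45 members above 0. With the index as a covariate the medians over members were -0.20 in control and -0.21 in LTβRΔN cells, with 13 and 15 of 45 above 0, against 0.03 and 0.02 over all genes, and Slfn2 was again the 1 member that passed. Values above 0 were found for 20 members in control and 19 in LTβRΔN cells, which is 44.4% and 42.2% of members beside 48.2% and 47.8% of all genes. The spread between libraries still left room for changes in many members. A doubling lay outside the 95% interval of 32 members in control and 34 in LTβRΔN cells, and a halving outside that of 36 and 35. The median SD within groups on the log2 scale was 0.28 for the 14 members at 100 CPM or more, 0.42 for 24 members at 10 to under 100 CPM, and 1.21 for 7 members under 10 CPM. In bulk RNA, fewer cells of a type and less RNA per cell cannot be told apart.

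**Figure D2:**
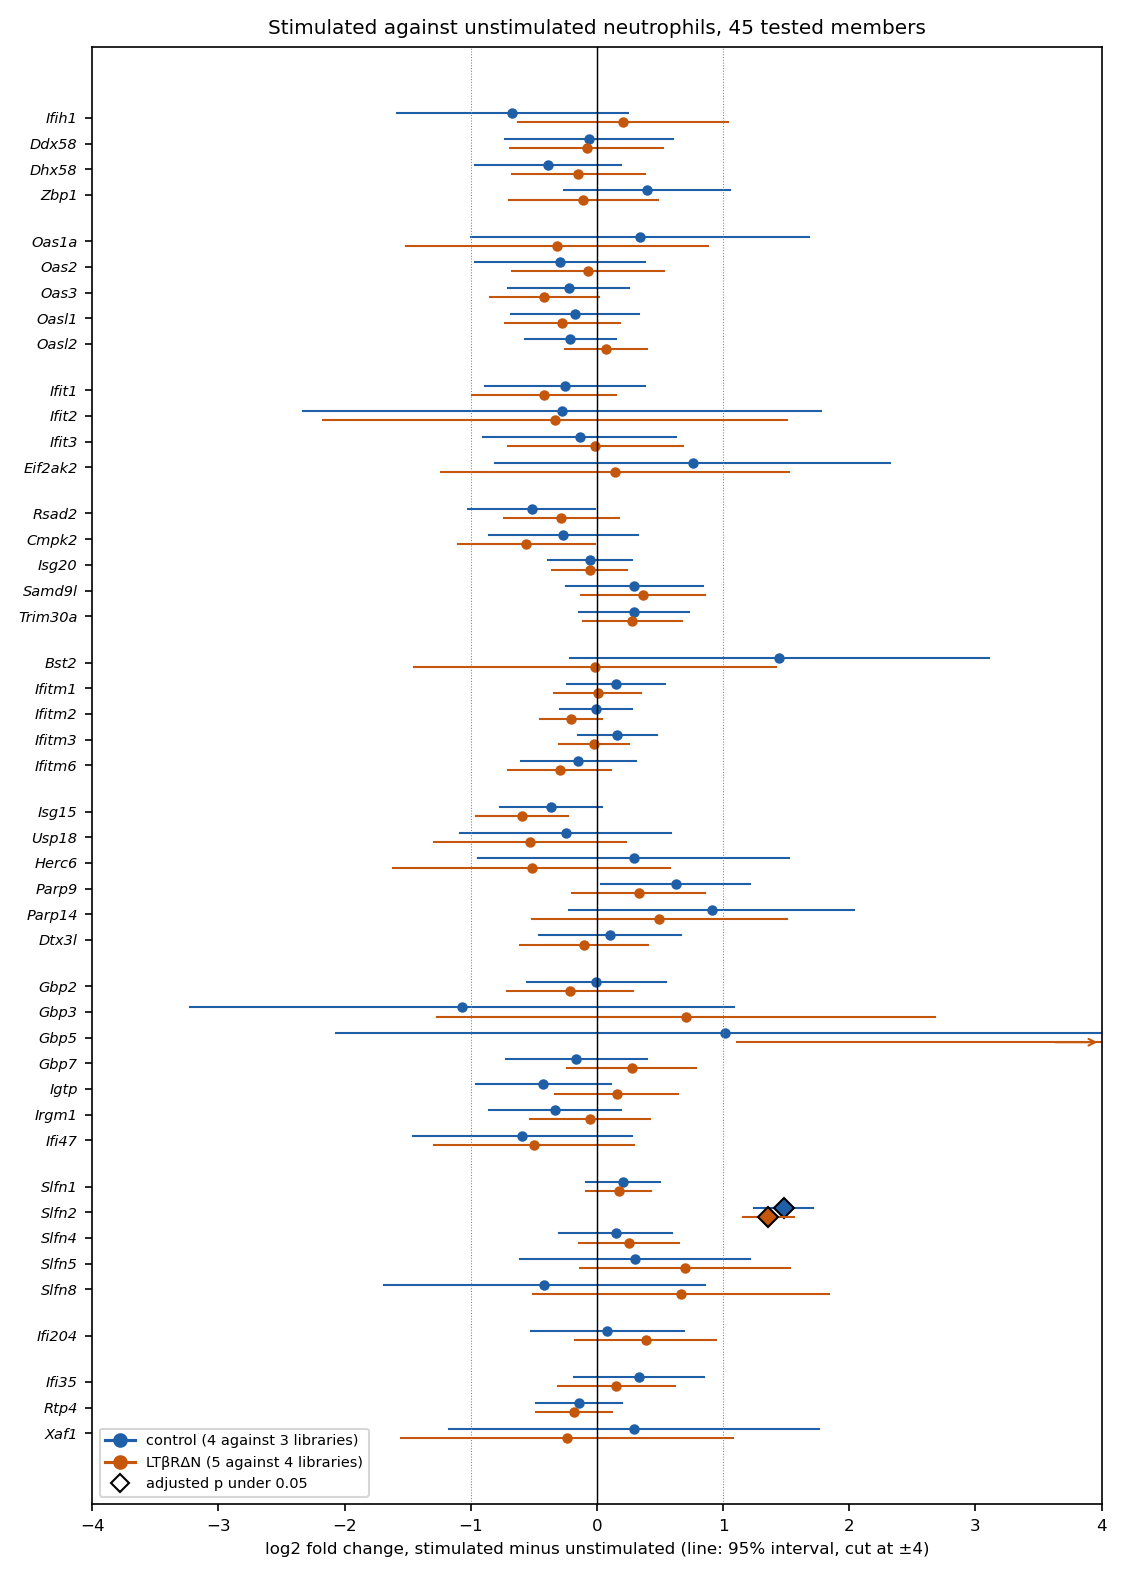
Log2 fold change of stimulated against unstimulated neutrophils for the 45 tested members, grouped by role from sensors at the top, with 95% intervals cut at 4 on either side (blue, control; orange, LTβRΔN; dotted lines, a doubling and a halving). Large diamonds mark an adjusted p under 0.05, held by Slfn2 alone at 1.48 and 1.36. The value of Gbp5 in LTβRΔN cells, 4.76, lies beyond the axis and is drawn as an arrow.

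The sensors of foreign nucleic acid did not pass in either genotype. Ifih1 (MDA5) and Ddx58 (RIG-I) detect viral RNA, Dhx58 (LGP2) tunes both, and Zbp1 detects Z-form nucleic acid. Their log2 fold changes lay between -0.67 and 0.40 in control and between -0.15 and 0.21 in LTβRΔN cells. Dhx58 was at 30.4, 25.4 and 23.6 CPM in unstimulated and at 22.6, 17.3, 23.8 and 17.2 in stimulated control libraries. In LTβRΔN libraries it was at 34.5, 34.4, 28.3 and 35.1 unstimulated and at 35.5, 29.8, 34.5, 32.3 and 17.8 stimulated. The ranges touch within both genotypes, and the log2 fold changes were -0.38 (SE 0.280) and -0.15 (SE 0.253).

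The OAS genes, whose products include the enzymes that make the activator of RNase L on sensing double-stranded RNA, lay between -0.29 and 0.34 in control and between -0.42 and 0.07 in LTβRΔN cells. Oas2 ran at 25.5, 35.4 and 51.1 CPM in unstimulated and 18.0, 44.1, 33.6 and 26.5 in stimulated control libraries. The LTβRΔN libraries were at 67.1, 72.8, 43.0 and 63.4 unstimulated and at 53.6, 40.7, 90.2, 38.2 and 72.1 stimulated. Stimulation left the ranges overlapping, with log2 fold changes of -0.29 (SE 0.324) and -0.07 (SE 0.290).

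The IFIT proteins bind foreign RNA ends and block their translation, and Eif2ak2 (PKR) halts translation on sensing double-stranded RNA. Ifit1, Ifit2 and Ifit3 gave -0.25, -0.28 and -0.14 in control and -0.42, -0.33 and -0.01 in LTβRΔN cells, and Eif2ak2 gave 0.76 and 0.14 with intervals wider than a doubling. Ifit3 was at 30.7, 28.9 and 31.9 CPM in unstimulated and 12.8, 24.4, 45.7 and 27.6 in stimulated control libraries. In LTβRΔN libraries it was at 42.1, 44.8, 43.0 and 32.3 unstimulated and at 34.9, 70.6, 27.5, 20.2 and 43.4 stimulated. Stimulated libraries lay on both sides of the unstimulated ones.

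Rsad2 (viperin), which makes a chain-terminating nucleotide, and its genomic neighbour Cmpk2, a mitochondrial nucleotide kinase, were named after their values had been seen for Rsad2 and by a fixed rule for Cmpk2. Rsad2 was at 137, 136 and 182 CPM in unstimulated and 116, 87.5, 125 and 95.1 in stimulated control libraries. Cmpk2 was at 76.6, 73.3 and 76.1 before and 65.0, 61.9, 63.5 and 59.9 after stimulation in control cells, and at 81.7, 77.6, 56.1 and 65.7 before and 54.2, 33.1, 91.6, 24.7 and 39.5 after in LTβRΔN cells. For both genes the stimulated control libraries lay below the unstimulated ones without overlap, while the LTβRΔN ranges overlapped. The log2 fold changes in control cells were -0.52 (SE 0.243) for Rsad2, with an edgeR adjusted p of 0.4145, and -0.27 (SE 0.285) for Cmpk2, with 0.8842. In LTβRΔN cells Cmpk2 gave -0.56 (SE 0.261) with an edgeR adjusted p of 0.3611, and without the stimulated library 77, the one at 91.6, it gave -0.90 with 0.01472. Isg20, an exonuclease that degrades RNA, gave -0.06 in both genotypes. Samd9l, a translation inhibitor, gave 0.30 and 0.36, and Trim30a, a ring-finger regulator of signalling, gave 0.29 and 0.28.

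The membrane group traps or blocks virus particles at membranes. Ifitm1, Ifitm2, Ifitm3 and Ifitm6, small proteins that hinder viral fusion, moved by between -0.15 and 0.16 in control and between -0.29 and 0.01 in LTβRΔN cells. Their intervals did not reach a doubling or a halving in either genotype. Bst2 (tetherin), which tethers budding virus and is also a marker of plasmacytoid dendritic cells, was at 4.56, 2.61 and 1.83 CPM in unstimulated control libraries and at 19.1, 1.42, 3.27 and 9.11 in stimulated ones. In LTβRΔN libraries it was at 6.96, 4.002, 4.53 and 7.92 unstimulated and at 7.48, 4.46, 7.05, 1.80 and 8.91 stimulated. Its highest value came from 1 stimulated control library, library 80, and the log2 fold change in control cells was 1.45 (SE 0.802, edgeR adjusted p 0.5554).

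Isg15, a ubiquitin-like protein attached to other proteins, was lower in every stimulated library than in any unstimulated one in both genotypes, without passing the test. It was chosen for description after its values had been seen. Isg15 was at 80.2, 82.9 and 85.8 CPM in unstimulated and 58.5, 49.6, 79.1 and 70.0 in stimulated control libraries. LTβRΔN libraries held 103.8, 82.4, 91.7 and 90.8 unstimulated and 67.3, 64.5, 43.0, 61.1 and 68.6 stimulated. The log2 fold change was -0.36 (SE 0.195, edgeR adjusted p 0.5296) in control and -0.60 (SE 0.176, edgeR adjusted p 0.06395) in LTβRΔN cells. In LTβRΔN cells it passed under 4 other ways of scaling, filtering or testing, with adjusted p of 0.04409 with upper-quartile factors and 0.02752 with DESeq2. It did not pass with the index as a covariate (-0.67, edgeR adjusted p 0.9999) or with a replicate block (-0.65, edgeR adjusted p 0.07333). The index effect in the former was taken from the unstimulated control libraries, since index and treatment label coincide in LTβRΔN cells. Members whose libraries did not overlap in control cells were Slfn2, higher, and Rsad2, Cmpk2 and Isg15, lower, which is 4 of 45 beside 12.7% of all genes. In LTβRΔN cells they were Slfn2, higher, and Isg15, lower, which is 2 of 45 beside 7.28%.

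The partners of Isg15 and its neighbours in ubiquitin and ADP-ribose transfer did not pass. Usp18, which removes Isg15 and restrains the type I receptor, gave -0.25 and -0.53 in control and LTβRΔN cells. Herc6, the ligase that attaches Isg15 in mice, was at 3.58, 6.68 and 5.90 CPM in unstimulated and 9.87, 6.88, 5.75 and 3.87 in stimulated control libraries. The LTβRΔN libraries were at 13.3, 20.01, 12.7 and 7.83 unstimulated and at 13.1, 9.78, 1.41, 10.3 and 11.2 stimulated, so the ranges overlapped in both genotypes. Parp9 and Dtx3l form a complex that modifies histones, and they overlap on opposite strands. Parp9 gave 0.62 (SE 0.285, edgeR adjusted p 0.3953) in control and 0.33 in LTβRΔN cells, and Dtx3l gave 0.10 and -0.10. Parp14, an ADP-ribosyltransferase, gave 0.91 and 0.49 with intervals that include a doubling.

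The GTPases of the GBP and IRG families, which attack membranes around intracellular pathogens and respond most to interferon gamma, did not pass in either genotype. In control cells 1 of 7 lay above 0, Gbp5, and the median was -0.33, while in LTβRΔN cells 4 of 7 lay above 0 and the median was 0.16. Gbp2, Gbp7, Igtp, Irgm1 and Ifi47 lay between -0.59 and -0.01 in control and between -0.50 and 0.28 in LTβRΔN cells. Gbp3 was at 3.96, 2.61 and 8.70 CPM in unstimulated and at 0, 0.712, 2.48 and 6.37 in stimulated control libraries. In LTβRΔN libraries it was at 5.72, 1.60, 2.26 and 3.66 unstimulated and at 10.6, 3.96, 2.11, 2.25 and 8.91 stimulated. Gbp5, named after its values had been seen, was at 0.155, 0.8004, 0 and 0 CPM in unstimulated and 4.98, 0, 2.11, 2.25 and 10.46 in stimulated LTβRΔN libraries. Unstimulated control libraries held 4.79, 0.340 and 0 CPM of it and stimulated ones 5.95, 3.56, 3.47 and 1.12. The libraries overlapped in both genotypes, and the edgeR adjusted p in LTβRΔN cells was 0.1865.

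The remaining members were Ifi204 of the PYHIN family of DNA sensors, and Rtp4, Ifi35 and Xaf1. Ifi204 gave 0.08 (SE 0.294) and 0.39 (SE 0.269), with libraries between 18.0 and 52.3 CPM in all. Rtp4, a receptor chaperone, was at 322, 308 and 338 CPM in unstimulated and 232, 255, 383 and 301 in stimulated control libraries. It was at 371, 321, 357 and 392 in unstimulated and 349, 324, 253, 275 and 388 in stimulated LTβRΔN libraries, with log2 fold changes of -0.14 and -0.18. Ifi35, a partner of the protein Nmi, gave 0.33 and 0.15. Xaf1, an antagonist of an apoptosis inhibitor, gave 0.29 and -0.24.

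In all, 4 members had too few counts to be tested, and library 82 held most of what there was. Ifi44 had 0 counts among the 98029304 of all libraries, which allows up to 0.0306 CPM. Mx1, a GTPase that blocks influenza virus and is defective in many laboratory strains, had 6 counts in 4 libraries. Mx2, listed by the annotation as a polymorphic pseudogene, had 39 counts, all in library 82, at 3.87 CPM. Ifi203, a PYHIN gene, had 73 counts in 5 libraries, 60 of them in library 82. That library is also the one with the highest platelet markers and the highest summed immature neutrophil markers, 3262 CPM against at most 2604, and the part of those cells in Mx2 and Ifi203 was not tested.

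**Figure D3:**
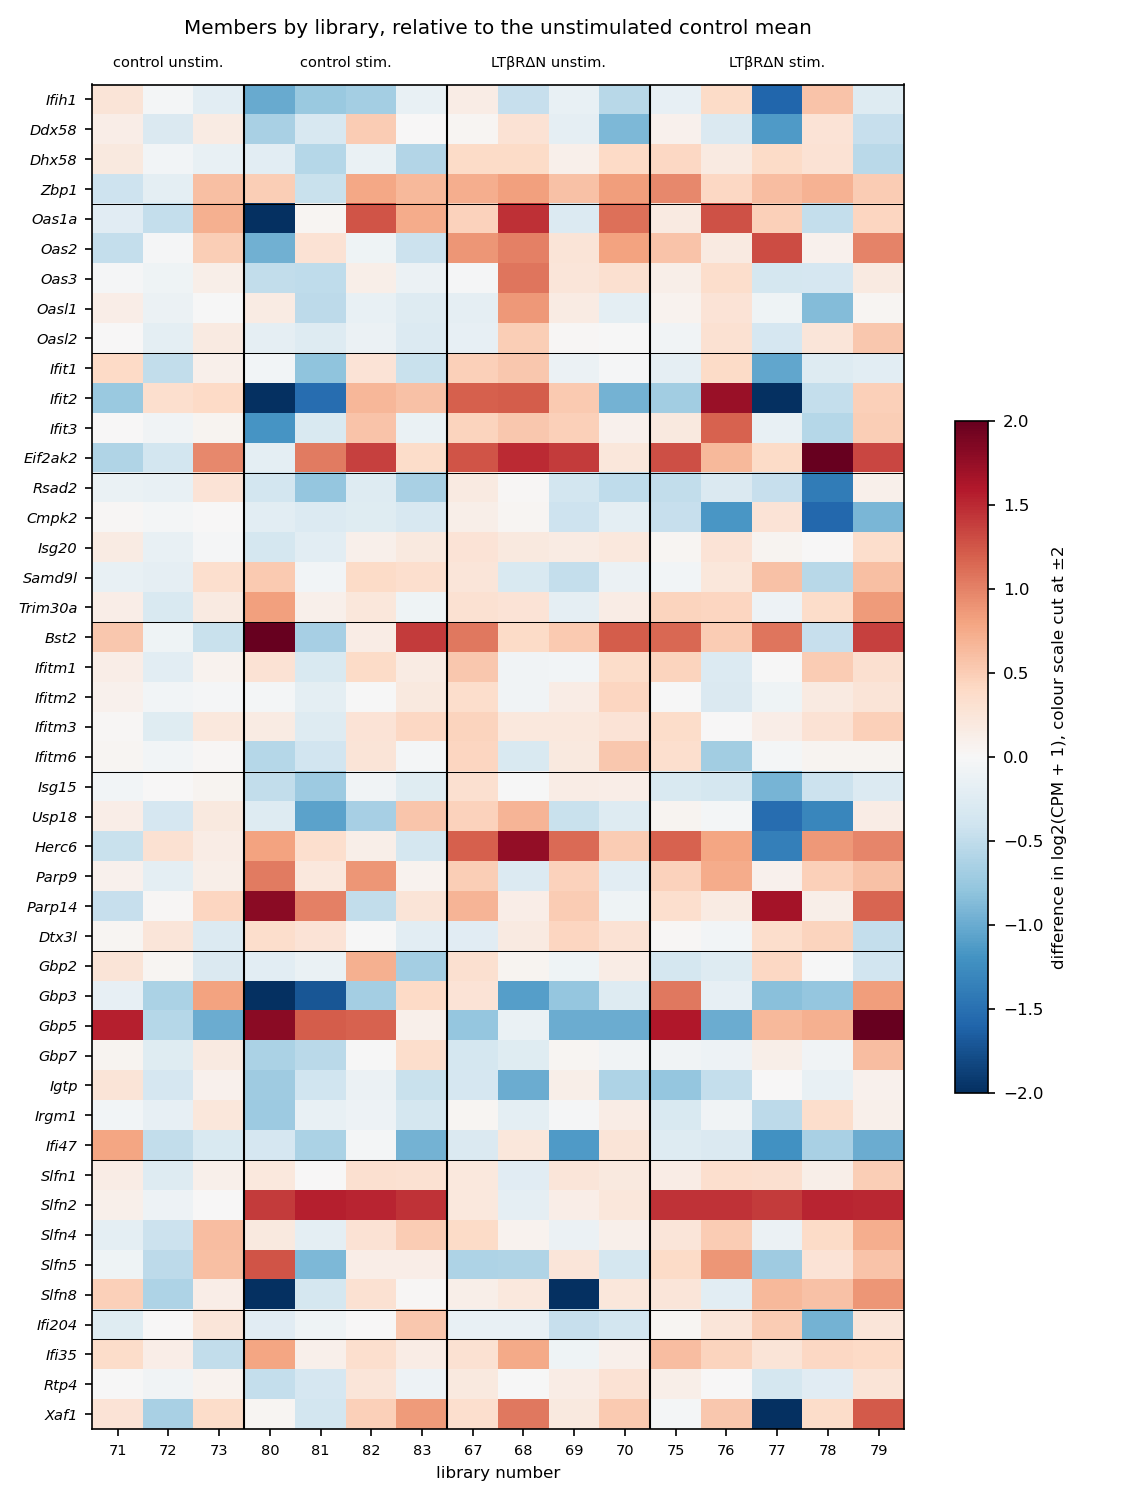
Difference of each tested member from its unstimulated control mean, in log2(CPM + 1), by library, with colours cut at 2 on either side (red, higher; blue, lower) and horizontal lines between roles. The Slfn2 row is deep red throughout both stimulated groups, the rows of Parp9, Ifi35 and Slfn1 also lie above the unstimulated control mean in the stimulated libraries to a lesser and varying degree, and the rows of members with low counts vary from library to library within a group.

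Compared per length of exons, the membrane genes made up most of the interferon-stimulated transcript. As CPM per kb of exons, the median over libraries was 4515 for Ifitm2, 1677 for Slfn2, 1439 for Ifitm1 and 1121 for Ifitm3, which together held 85.7% of the summed level of the module. Slfn1 followed at 321.8, Ifitm6 at 205.7, Rtp4 at 151.6 and Slfn4 at 143.7. Of the other members, 15 lay at 10 to under 100, 19 at 1 to under 10 and 7 under 1, and 41 of the 49 had counts in every library. Ifitm2 libraries, at 3730 to 6148, did not overlap those of Slfn2, at 564.2 to 1869, whereas Ifitm1, at 1055 to 1878, overlapped both Slfn2 and Ifitm3, at 806.9 to 1347. In unstimulated control cells the median of Slfn2 was 637, below Ifitm1 at 1366 and Ifitm3 at 985.5, and in stimulated control cells it was 1783, above Ifitm1 at 1521 and Ifitm3 at 1126. The module's mean log2 CPM was 5.63 ± 0.17 (SD, n = 3) in unstimulated and 5.61 ± 0.24 (n = 4) in stimulated control, and 5.79 ± 0.14 (n = 4) and 5.79 ± 0.24 (n = 5) in LTβRΔN neutrophils.

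**Figure D4:**
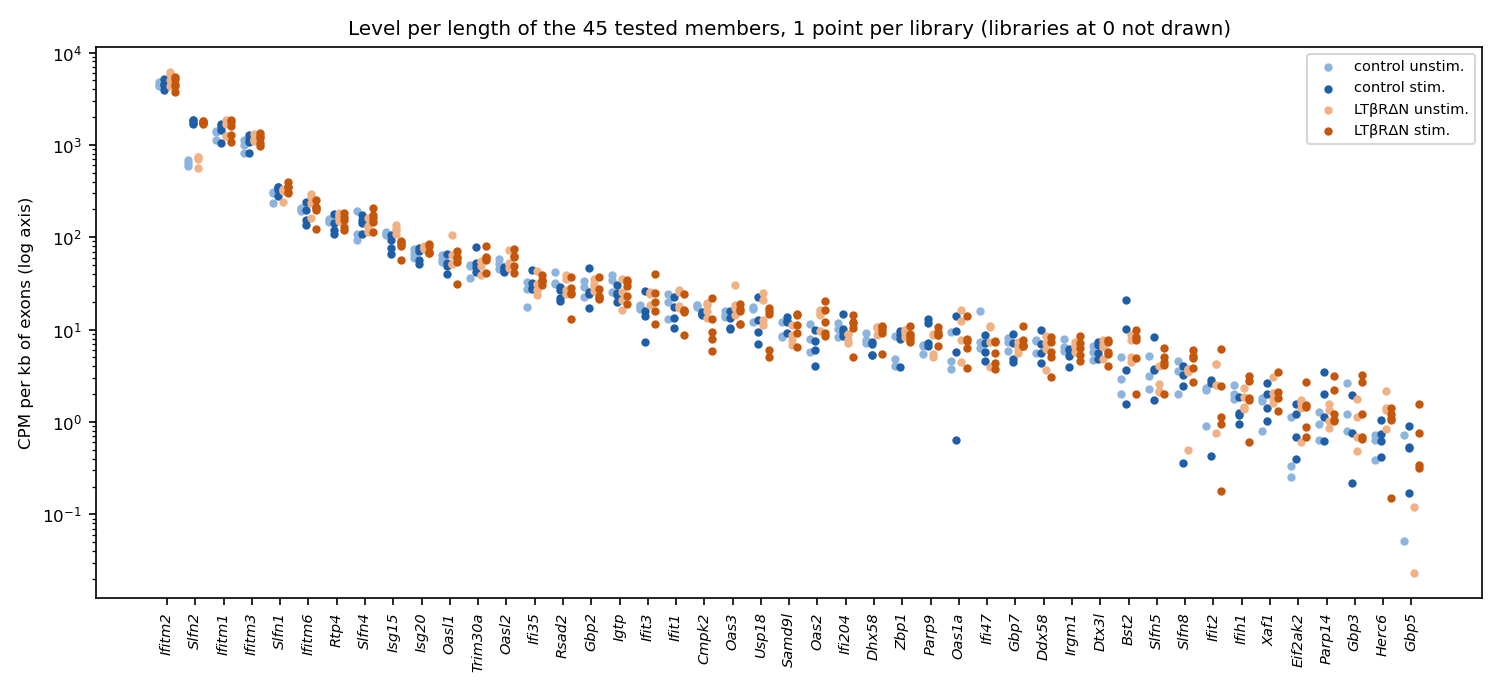
CPM per kb of exons of the 45 tested members on a log axis, ordered by median over libraries, with 1 point per library and libraries at 0 not drawn. Ifitm2 is highest at a median of 4515, and the points of Slfn2 fall into 2 sets, with the stimulated libraries above.

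Between genotypes, 0 of 45 members passed in unstimulated cells, beside 0.0217% of all genes, and 0 of 45 in stimulated cells, beside 0.0217%, by edgeR. Before adjustment, p lay under 0.05 for 3 members in each. These were Zbp1, Oas2 and Herc6 in unstimulated and Dhx58, Oas2 and Oasl2 in stimulated cells, all with higher values in LTβRΔN. Both counts are given without the share over all genes and are not read as a result about the members. More members lay above 0 than below, 31 of 45 (68.9%, beside 48.7% of all genes) unstimulated and 32 of 45 (71.1%, beside 48.7%) stimulated. Single libraries moved these counts. With 1 library left out, they ran from 25 (without control library 72) to 33 unstimulated and from 24 (without control library 81) to 35 stimulated. The median log2 fold change was 0.16 unstimulated and 0.11 stimulated, against -0.01 over all genes in both. The members share their libraries and are not separate measurements of genotype, and the module means of single libraries overlapped between genotypes, at 5.63 to 5.92 in LTβRΔN against 5.44 to 5.76 in control unstimulated cells and at 5.46 to 6.08 against 5.395 to 5.88 in stimulated cells.

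Oas2 was the member with the smallest p of all in stimulated cells. Its control libraries lay between 18.0 and 44.1 CPM and its LTβRΔN libraries between 38.2 and 90.2, so the groups overlapped, and the log2 fold change was 0.94 (SE 0.295, interval 0.33 to 1.55, edgeR adjusted p 0.6357). In unstimulated cells it was 0.72 (SE 0.330, interval 0.04 to 1.405). Dhx58 gave 0.56 (interval 0.03 to 1.09) in stimulated and 0.32 (interval -0.27 to 0.91) in unstimulated cells. Over all members, values ran from -0.48 (Bst2) to 1.19 (Gbp3) in stimulated and from -3.59 (Gbp5) to 1.30 (Herc6) in unstimulated cells. Each of these extremes came from a member with a mean under 10 CPM. Of the GBP and IRG genes, 1 of 7 lay above 0 in unstimulated cells (median -0.28) and 5 of 7 in stimulated cells (median 0.17). Without library 82, the stimulated median over members was 0.16, and without library 81 it was 0.01.

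In unstimulated cells the libraries of 2 members did not overlap between genotypes, Ifit3 and Herc6, both higher in LTβRΔN, beside 5.71% of all genes. Ifit3 lay between 28.9 and 31.9 CPM in control and between 32.3 and 44.8 in LTβRΔN libraries, with a log2 fold change of 0.40 (SE 0.376, edgeR adjusted p 1). Herc6 lay between 3.58 and 6.68 in control and between 7.83 and 20.01 in LTβRΔN libraries, with 1.30 (SE 0.614, edgeR adjusted p 1). In stimulated cells 0 of 45 members were without overlap, beside 1.31% of all genes. The index is S521 in 1 of the 3 unstimulated control libraries and in none of the unstimulated LTβRΔN ones.

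Slfn2 differed by 0.11 (interval -0.12 to 0.33) between genotypes in unstimulated and by -0.01 (interval -0.21 to 0.18) in stimulated cells. The stimulation response itself differed between genotypes for 0 of 45 members by edgeR, beside 0% of all genes. An unadjusted p under 0.05 was held by 0 members, a count given without its share over all genes. The interval of the difference in response lay within a doubling and a halving for 21 members. For the other 24 a difference past one of these limits is not excluded.

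**Figure D5:**
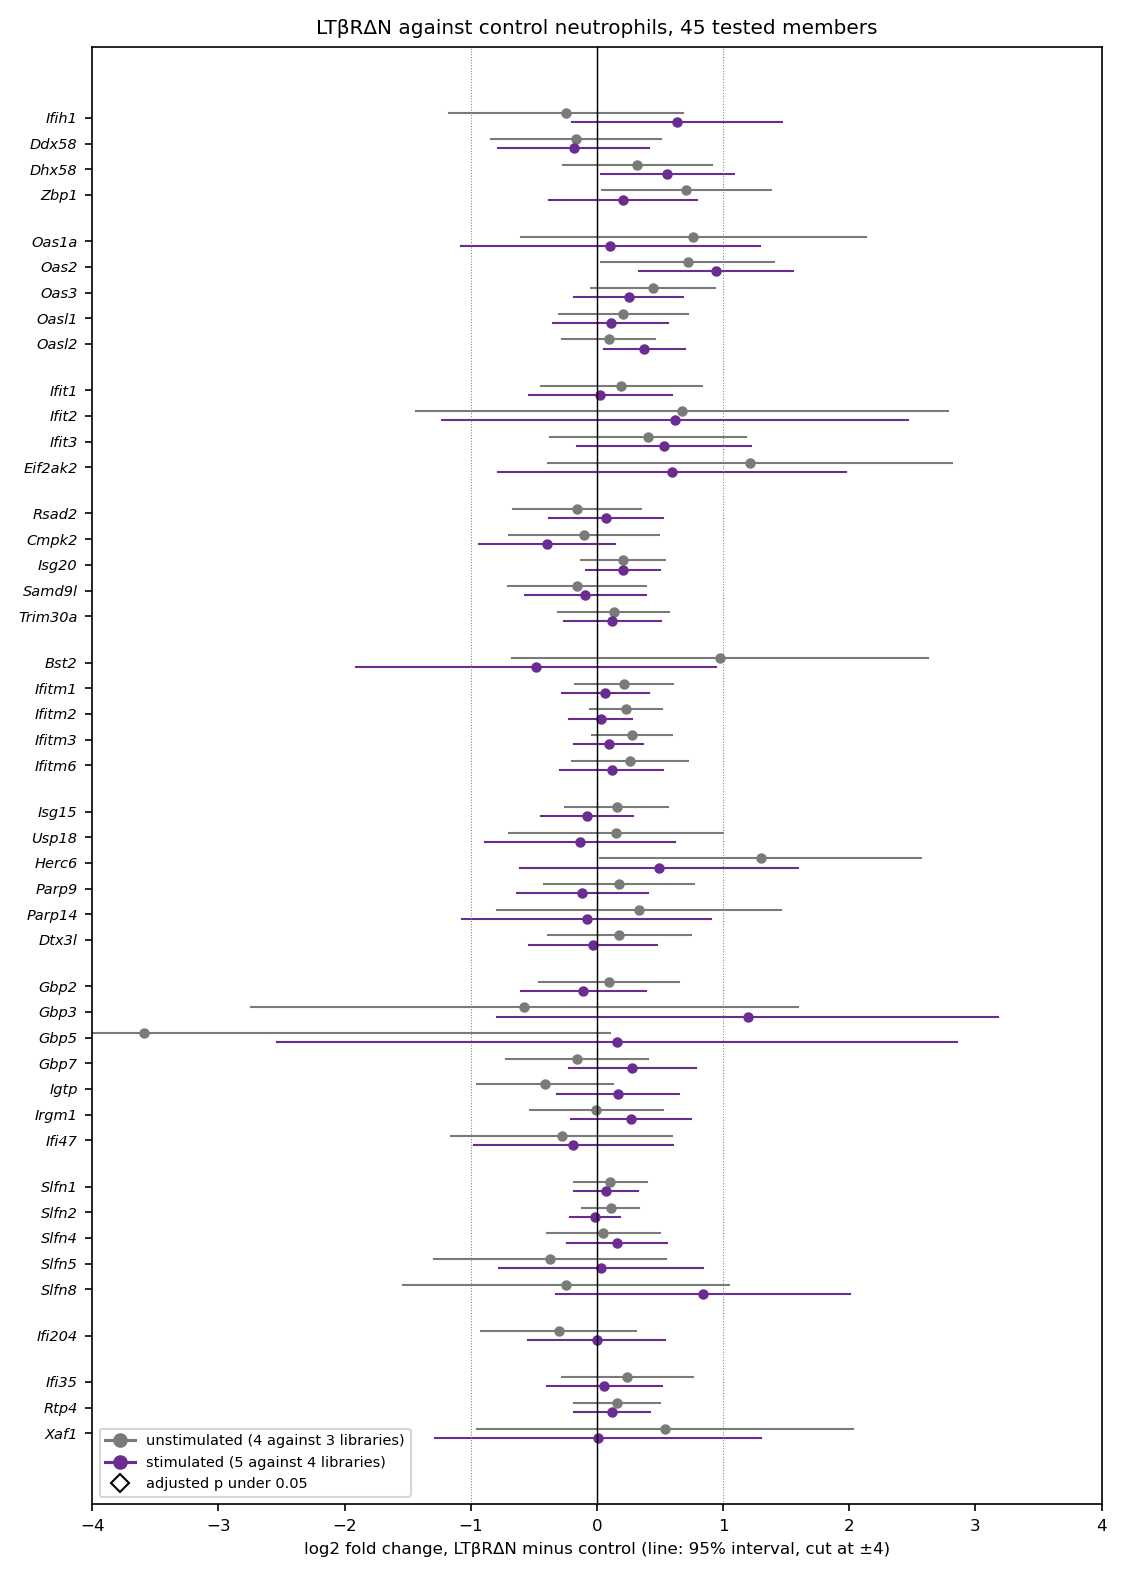
Log2 fold change of LTβRΔN against control neutrophils for the 45 tested members with 95% intervals cut at 4 on either side (grey, unstimulated; purple, stimulated; dotted lines, a doubling and a halving). No member is drawn as a diamond, the mark of an adjusted p under 0.05. With all libraries kept, 31 of 45 values in unstimulated and 32 of 45 in stimulated cells lie to the right of 0, counts that move when single libraries are left out.

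The rest of the interferon pathway was read from a list of 40 genes, of which 36 were in the table and 30 were tested. The interferon genes Ifnb1, Ifng, Ifna1, Ifna2 and Ifna4 had 0 counts in every library, which allows up to 0.0306 CPM over all libraries for each. The 5 receptor chains tested, which include Ifnar1, Ifnar2, Ifngr1 and Ifngr2, did not pass and lay between -0.43 and 0.26. Among transcription factors, Irf7 gave -0.13 and -0.45 and Irf9 0.09 and -0.15 in control and LTβRΔN cells, and neither passed.

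Of the 30 tested pathway genes 7 passed in control and 6 in LTβRΔN cells, all higher, beside 3.48% and 3.73% of all tested genes. The list was made with earlier results of these data known, and Socs3 had already served to check the stimulated label. The counts are therefore a description and not a test of the pathway. Irf1, a transcription factor of interferon-induced genes, was at 489, 468 and 460 CPM in unstimulated and 1611, 1685, 1626 and 1658 in stimulated control libraries. In LTβRΔN cells it was at 484, 601, 593 and 611 before and at 1363, 1668, 1899, 1683 and 1675 after stimulation, and the log2 fold changes were 1.80 (SE 0.123) and 1.54 (SE 0.107). Socs1, which blocks the interferon receptors' kinases, rose from a mean of 5.45 ± 1.41 (SD, n = 3) to 32.7 ± 5.31 CPM (n = 4) in control cells and from 10.4 ± 3.14 (n = 4) to 33.9 ± 10.48 (n = 5) in LTβRΔN cells. Socs3, an inhibitor of IL-6 receptor signalling, rose by 4.03 and 3.59 on the log2 scale, and Jak2 by 1.32 and 1.55. Myd88, the adaptor of Toll-like and IL-1 receptors, rose by 0.77 and 0.74 and the phosphatase Ptpn1 by 0.68 and 0.62. Ptpn2, a tyrosine phosphatase, rose by 1.31 in control cells, and in LTβRΔN cells it gave 0.73 with an edgeR adjusted p of 0.1748. With the index as a covariate Socs1, Jak2 and Ptpn1 did not pass in either genotype, nor Ptpn2 in control cells. In control cells the log2 fold changes were then 2.21 for Socs1 (adjusted p 0.0614), 1.14 for Jak2 (0.2114), 0.68 for Ptpn1 (0.2069) and 1.58 for Ptpn2 (0.1462). In LTβRΔN cells they were 1.09 for Socs1 (0.9999), 1.28 for Jak2 (0.4421) and 0.61 for Ptpn1 (0.8432), with the index effect taken from the unstimulated control libraries. Scaled by library totals alone, Ptpn1 did not pass either, at 0.43 in both genotypes (0.1043 and 0.06044). Without unstimulated control library 72 Ptpn1 had 0.0579, and without library 73 Ptpn2 had 0.07293.

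A wider list of 70 interferon-induced genes outside the module, also made with earlier results known, had 43 tested genes. The same 3 of them rose in both genotypes while 0 fell, beside 3.48% and 3.73% of all tested genes passing in control and LTβRΔN cells. Cxcl10, a chemokine that draws T cells, was at 0.913, 0.567 and 4.63 CPM in unstimulated and 198, 199, 216 and 129 in stimulated control libraries. In LTβRΔN cells it was at 0.928, 3.20, 1.13 and 0.426 before and at 117, 171, 140, 119 and 120 after. The log2 fold changes were 6.62 (SE 0.485) and 7.18 (SE 0.488), with edgeR adjusted p of 1.114e-09 and 2.61e-10, and its exons overlap those of Art3 on the other strand. Cd274 (PD-L1), a ligand that restrains T cells, rose from 33.4 ± 8.75 (SD, n = 3) to 506 ± 124 CPM (n = 4) in control and from 45.1 ± 5.83 (n = 4) to 470 ± 112 (n = 5) in LTβRΔN cells. Cxcl11, named as a chemokine of the same receptor as Cxcl10, is listed by the annotation as a polymorphic pseudogene, so its counts do not show a working protein. It was at 0 in all 7 unstimulated libraries. Stimulated control libraries held 3.11 to 14.0 CPM of it and stimulated LTβRΔN libraries 0.898 to 12.8. With the index as a covariate the fitted log2 fold changes of Cxcl11 stayed at 8.31 and 7.78. It then did not pass in control (edgeR adjusted p 0.3588) or LTβRΔN cells (0.9999), the latter with an index effect taken from the unstimulated control libraries. With a replicate block it did not pass in LTβRΔN cells (0.08468). Psmb8, Psmb9, Tap1 and B2m, of antigen processing, lay between -0.29 and 0.12 and did not pass. Between genotypes 0 of the 30 pathway and 0 of the 43 wider genes passed, beside 0.0217% of all genes in unstimulated and in stimulated cells.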

How the data were processed

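The authors deposited 1 table of raw read counts per gene symbol for 16 libraries, made from single-end reads. The submitters' processing notes name Bowtie 1.0.0, TopHat 1.4.1, HTSeq 0.7.1 and the build mm10, while the annotation and strand setting are not given in the sources used here. Column names were matched to sample titles, and 0 columns stayed without a sample. The 49 members, the role lists and the lists of related genes were chosen with earlier results of these data known.

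Genes were kept by filterByExpr (minimum count 10, minimum total 15), which left 9213 of 23337. Counts were fitted in edgeR 4.0.16 (R 4.3.3, limma 3.58.1) with TMM factors, 1 coefficient per group over all 16 libraries and the quasi-likelihood test, and Benjamini-Hochberg adjusted p under 0.05 over all 9213 genes counted as passing. Standard errors and 95% intervals come from the same model. CPM are counts scaled to an equal library size with TMM factors, and mean log2 CPM used a prior count of 2. Levels per length used exon lengths of GENCODE annotation on GRCm38, the assembly of mm10, and exon overlaps were read from it. Floors from 0 counts use 3 counts and cover counting error only. Promoter windows are from RefSeq on GRCm38.p6. The fit was first tested on simulated counts.

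Values in every library are given for members that passed and, in each role, for the tested member with the smallest unadjusted p between genotypes in stimulated cells, in the text partly as ranges. Pathway genes that passed are named, as are up to 6 of the wider list. Isg15, Rsad2, Ifit1, Gbp5, Parp9, Slfn1 and other members with values were added after the values were seen. Sequences were to be printed for passing members with a motif match; the Slfn2 sequence is printed although it has none. Between libraries of a group, chi-square per degree of freedom was 6.31 to 47.6 over 25 pairs, above that of sampling noise, so none was taken as a repeat. Alternatives were upper-quartile and DESeq2 1.42.0 size factors, library totals alone, other filters, DESeq2's Wald test, the index, a replicate block, another threshold and leaving out each library. Leaving out libraries 68 and 82 together was added after seeing the data. Exons of 17 members overlap another gene.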

Additional observations from a re-analysis of the deposited data

Results flagged for a closer look

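Of 58 groups of 4 or 5 libraries examined for the described genes, 6 held a library far from the others. For evenly spread values chance gives about 1 in 20 groups, or 2.9. That rate does not hold for the groups of Mx2 and Ifi203 among the 6. There the other libraries were at 0, and any single library with counts is picked out by the rule itself. The 6 are therefore not read as an excess over 2.9. Library 69, unstimulated LTβRΔN, was lowest for Dhx58 at 28.3 CPM, with the nearest library at 34.4, and for Slfn8 at 2.04 CPM, with the nearest at 14.2. It also held Ifi203 at 1.36 CPM where the other 3 libraries of its group were at 0. Library 77, stimulated LTβRΔN, held Herc6 at 1.41 CPM against 9.78 in the nearest library. Library 82, stimulated control, held Mx2 at 3.87 CPM, and the other stimulated control libraries were at 0. Library 67, unstimulated LTβRΔN, was lowest for Irf1 at 484 CPM, with the nearest at 593. The cause was not tested for any of these.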

How the results depend on the processing

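Of 234 recomputed counts and medians, 227 stayed the same, meaning an unchanged count or a median moved by less than 0.206. That limit is the SD within groups of the module's mean log2 CPM. The sign of a median was not part of the rule. Medians near 0 changed sign, such as that of control cells without library 80 and of LTβRΔN cells without library 77, both at 0.03. The number of members passing in stimulated against unstimulated LTβRΔN cells, 1 as reported, was 2 with upper-quartile factors, 3 with library totals alone, 2 with at least 10 counts in every library (35 members then tested), 3 with DESeq2's Wald test and 2 at an adjusted p under 0.1. Isg15 was among them each time and gave -0.62, -0.78, -0.57 and -0.58 with adjusted p of 0.04409, 0.006967, 0.04966 and 0.02752 under the first 4, joined by Ifitm2 with totals and Gbp5 with DESeq2. With totals alone the control median over members was -0.31, but that of all genes was also -0.27. Leaving out each library in turn gave 1 to 2 passing members in LTβRΔN cells (Cmpk2 is added without library 77) and medians of -0.08 to 0.03, 1 and -0.15 to 0.03 in control cells, 0 and 0.10 to 0.22 for genotype in unstimulated and 0 and 0.01 to 0.16 in stimulated cells, and 0 and -0.16 to 0.04 for the difference in response. Slfn2 passed in both genotypes under all 26 alternatives, at 1.23 to 1.53 in control and 1.18 to 1.402 in LTβRΔN cells. With the index as a covariate its edgeR adjusted p was 1.225e-05 and 0.0006226, and Cxcl11 no longer passed (8.31 with 0.3588 and 7.78 with 0.9999). For LTβRΔN cells that index effect is the one seen among the unstimulated control libraries. Without libraries 68 and 82, chosen after seeing the data, 1 member passed in each stimulation comparison and 0 between genotypes.

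The column names carry a number that 7 pairs of libraries share across treatment labels. Deviations of the pairs from their group means correlated at 0.02 to 0.07, and since no pair passed 0.1 and no label says what the number marks, it was not taken as a pairing. In 5 of 7 pairs the unstimulated library correlated best with its own number, and over the members alone the pairs lay between -0.17 and 0.46, a hint from the data that some numbers may pair libraries. A replicate block on it left 1 member passing in each genotype, Slfn2, at 1.46 and 1.36, with medians over members of -0.24 (-0.06 without it) and -0.08, and Cxcl11 did not pass in LTβRΔN cells (0.08468). The genotype comparisons could not be fitted with the block, since numbers are nested in genotype. Depth limits the 7 members under 10 CPM most.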
